A study of Mus musculus with 13 samples.

Results

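The 10 transcripts described here encode the folding machinery of the endoplasmic reticulum (ER) and the transcription factor Xbp1, namely Hspa5, Hsp90b1, Canx, Calr, Pdia3, Pdia4, Pdia6, Dnajb9, Sdf2l1 and Xbp1. They were taken by gene symbol from a count table of mouse lung, in which they are 10 of 32544 symbols, and all 10 passed the filter on low counts that left 12496 genes for testing. The lungs came from wild-type male C57BL/6J mice, 7 weeks old at purchase, kept for 5 days in 21% oxygen (normoxia, n = 7) or in 80% oxygen (hyperoxia, n = 6). Lungs were perfused with cold buffered saline and frozen, and 500 ng of RNA from each was made into a Quant-seq library, which counts the 3′ ends of polyadenylated transcripts. The labels number the samples of each group and do not tie each one to an animal, so the p-values measure the spread between these samples, which may in part be technical.

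Proteins that enter the ER are folded by chaperones of the Hsp70 and Hsp90 families, by the lectins calnexin and calreticulin, and by disulfide isomerases. When folding falls behind, the unfolded protein response (UPR) is switched on through the sensors IRE1, ATF6 and PERK. IRE1 splices the Xbp1 mRNA, ATF6 is cut in the Golgi to release a transcription factor, and PERK slows translation and raises ATF4. Genes for ER chaperones are the classical targets of ATF6 and of spliced XBP1. In the lung, secretory cells such as alveolar type 2 cells, club cells and plasma cells carry a heavy load of proteins through the ER.

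In hyperoxia the 10 transcripts did not move as a group. Hspa5, which encodes the ER Hsp70 chaperone BiP, and Canx, which encodes the membrane lectin calnexin, were higher, whereas Hsp90b1, which encodes the ER Hsp90 chaperone GRP94, and the disulfide isomerase Pdia6 were lower. The other 6 transcripts did not pass the test. Thus 2 of 10 were called higher and 2 of 10 lower at an adjusted p of 0.05 (edgeR's quasi-likelihood test with Benjamini-Hochberg adjustment), where 11.8% of all 12496 genes were called higher and 10.8% lower. The median log2 fold change of the 10 was -0.04, against -0.03 over all genes tested, and with limma on the deposited values it was -0.26 against -0.16. None of the 10 reached the log2 fold change of 1.5 that the study used as its limit, which 1.55% of genes passed upwards and 2.35% downwards. In whole lung, fewer cells of a type and less RNA per cell cannot be told apart.

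The libraries held between 1607111 and 4540288 counts, and the 10 transcripts together received between 4161 and 14129 of them. Hyperoxia replicate 1 stood apart. Its mean correlation with the other libraries was 0.779, where every other library was at 0.886 or above, and it held counts for 14170 symbols, the fewest of the 13. Among the hyperoxic libraries it was the highest for 5 of the 10 transcripts and the lowest for 4. The results for the 10 transcripts are therefore given with and without it. Values are CPM, the counts of a gene for each 1000000 counts of a library, after TMM scaling.

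The sequences before the start sites of the 4 transcripts that passed the test are shown because they carry the element by which ATF6 is known to act. The ER stress response element (ERSE) was searched as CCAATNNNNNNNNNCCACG on both strands of the 250 bases before the RefSeq start of each gene (GRCm38.p6). It contains a CCAAT box and a CCACG box, which were therefore found inside every match as well. The 4 windows lie at chr2:34771840-34772089 (Hspa5, plus strand), chr10:86705445-86705694 (Hsp90b1, minus strand), chr11:50325674-50325923 (Canx, minus strand) and chr12:17266339-17266588 (Pdia6, plus strand), and are written 5′ to 3′ on the strand of the gene with the ERSE in capitals.
Hspa5: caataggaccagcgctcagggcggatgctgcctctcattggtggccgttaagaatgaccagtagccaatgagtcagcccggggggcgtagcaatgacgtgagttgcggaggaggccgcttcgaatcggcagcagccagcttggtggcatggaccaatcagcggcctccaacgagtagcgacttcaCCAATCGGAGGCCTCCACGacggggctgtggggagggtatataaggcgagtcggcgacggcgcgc
Hsp90b1: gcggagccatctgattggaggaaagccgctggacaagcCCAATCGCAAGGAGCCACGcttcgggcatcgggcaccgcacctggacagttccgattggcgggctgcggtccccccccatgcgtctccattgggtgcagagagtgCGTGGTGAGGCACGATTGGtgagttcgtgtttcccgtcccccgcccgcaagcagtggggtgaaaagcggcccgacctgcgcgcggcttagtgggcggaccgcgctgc
Canx: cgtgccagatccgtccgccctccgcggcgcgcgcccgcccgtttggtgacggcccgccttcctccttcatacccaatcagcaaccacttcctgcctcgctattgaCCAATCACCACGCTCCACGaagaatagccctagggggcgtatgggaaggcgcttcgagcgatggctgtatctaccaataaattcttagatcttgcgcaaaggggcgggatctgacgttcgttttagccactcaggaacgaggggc
Pdia6: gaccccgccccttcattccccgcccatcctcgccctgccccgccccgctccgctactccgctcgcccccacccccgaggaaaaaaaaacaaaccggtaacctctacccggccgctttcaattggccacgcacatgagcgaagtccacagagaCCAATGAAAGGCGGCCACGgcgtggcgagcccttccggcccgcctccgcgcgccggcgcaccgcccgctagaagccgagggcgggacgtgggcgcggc

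The Hspa5 match ran from 65 to 47 bases before the start. Hsp90b1 held 2 matches, from 212 to 194 bases on the strand of the gene and from 107 to 89 bases on the other strand. Canx had its match from 145 to 127 bases and Pdia6 from 98 to 80 bases before the start. Calr also held a match, from 162 to 144 bases on the other strand. So 5 of the 10 promoters had an ERSE, as did 37 of all 32851 RefSeq promoters of that length (0.113%). The 10 genes were listed as targets of ATF6 and XBP1, so this share describes the list and is no result of the exposure. The ERSE stood before both transcripts that were higher, before both that were lower and before Calr, which did not pass the test. The letters of ERSE-II (ATTGGNCCACG) and of the UPRE core (TGACGTGG) were in 0 of the 10 windows, and in 0.0304% and 0.563% of all promoters.

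BiP, the product of Hspa5, binds unfolded chains in the ER and holds the UPR sensors inactive, and its mRNA is a common readout of the UPR. Hspa5 (ENSMUSG00000026864.13, chr2:34771970-34777547) was at 655, 778 and 861 CPM in the lowest, median and highest of the 7 normoxic libraries. The hyperoxic libraries were at 2160, 1086, 1057, 1023, 959 and 1088 CPM in replicates 1 to 6. Every hyperoxic library was above every normoxic library, which held for 5.6% of all genes tested, and replicate 1 was far above the other 5. The means were 770 ± 63.6 (SD, n = 7) and 1229 ± 458 CPM (n = 6), a log2 fold change of 0.67 ± 0.18 (SE) with an adjusted p of 0.0144 in edgeR's test. Without replicate 1 the hyperoxic mean was 1043 ± 53.8 CPM (n = 5) and the log2 fold change 0.45 (adjusted p = 0.00357, edgeR).

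GRP94, the product of Hsp90b1, folds a narrower set of clients such as Toll-like receptors and integrins. Hsp90b1 (ENSMUSG00000020048.13, chr10:86690209-86705509) was at 599, 805 and 898 CPM in the lowest, median and highest normoxic library and at 497, 530 and 574 CPM in the hyperoxic ones. The lowest normoxic library, replicate 5, lay well below the other normoxic ones, and the groups still did not overlap. Hsp90b1 overlaps the pseudogene 1810014B01Rik on the opposite strand, which is not among the symbols of the table. On its own strand it overlaps Gm15344, which is also not among them, and the microRNA gene Gm25745. Every hyperoxic library lay below every normoxic library for 5.23% of all genes tested. The mean of 791 ± 96.4 CPM in normoxia and of 534 ± 33.9 CPM in hyperoxia gave a log2 fold change of -0.57 ± 0.12 (adjusted p = 0.00371, edgeR). Hyperoxia replicate 1, at 500 CPM, was among the other hyperoxic libraries here, and without it the log2 fold change was -0.53 (adjusted p = 0.00277, edgeR).

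Because these chaperones moved in opposite directions, their counts were set against each other within each library. The ratio of Hspa5 to Hsp90b1 counts lay between 0.876 and 1.09 in normoxia, with a median of 0.999. In hyperoxia it was 4.32 in replicate 1 and between 1.67 and 2.13 in the other 5 libraries. A ratio within a library does not depend on the scaling between libraries. As Hspa5 was higher and Hsp90b1 lower in every hyperoxic library than in every normoxic one, their ratio had to separate the groups. The ratio was chosen after the values of both genes were seen and is given without a test. How well the 3′ end of each mRNA was captured was not measured, so its level is not read as which mRNA is the more abundant.

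**Figure D1:**
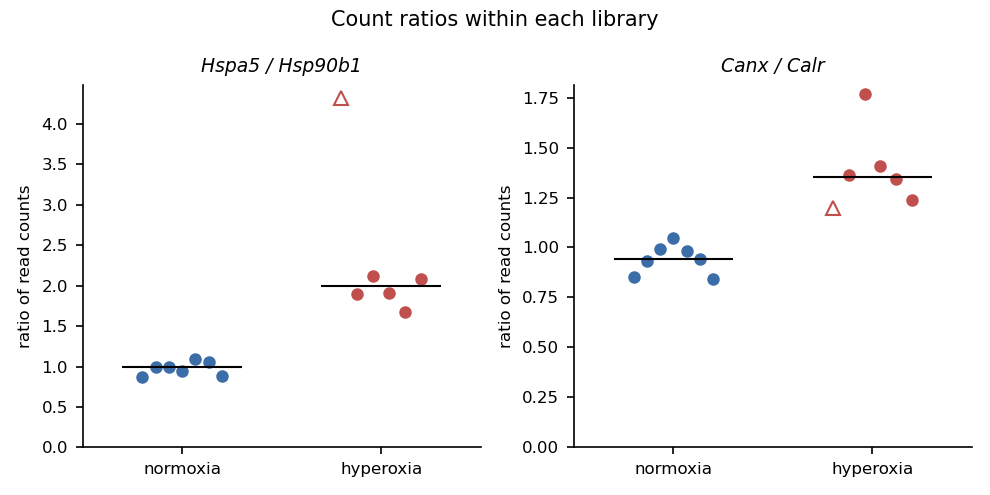
Ratio of read counts within each library (y axis) for Hspa5 to Hsp90b1 (left) and Canx to Calr (right). Shown are 7 normoxic (blue) and 6 hyperoxic (red) libraries, with black lines at the medians and hyperoxia replicate 1 as an open triangle. Both ratios are higher in every hyperoxic library than in every normoxic one, with Hspa5 to Hsp90b1 at 1.67 or above against 1.09 or below.

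Calnexin and calreticulin are the membrane-bound and the soluble lectin of the same cycle, in which glycoproteins are held until they fold. Canx (ENSMUSG00000020368.15, chr11:50293961-50325673) was at 326, 356 and 422 CPM in the lowest, median and highest normoxic library and at 404, 497 and 665 CPM in the hyperoxic ones. The groups overlapped, with hyperoxia replicate 2 at 404 CPM within the range of normoxia. The log2 fold change was 0.46 ± 0.14 (means 368 ± 39.8 and 508 ± 94.2 CPM, adjusted p = 0.0241, edgeR) and 0.39 without hyperoxia replicate 1 (adjusted p = 0.0237, edgeR). The call was near the threshold. It was lost when normoxia replicate 1, normoxia replicate 3 or hyperoxia replicate 5 was left out, with edgeR's adjusted p at 0.0521, 0.0509 and 0.0507.

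Calr (ENSMUSG00000003814.8, chr8:84841850-84846934) did not pass the test. Its normoxic libraries were between 331 and 500 CPM. Of the hyperoxic libraries, 5 were between 297 and 385 CPM and replicate 1 was at 556 CPM. The log2 fold change was -0.07 ± 0.16 (adjusted p = 0.790, edgeR) and -0.21 without replicate 1 (adjusted p = 0.243). The ratio of Canx to Calr counts nevertheless separated the groups, from 0.844 to 1.05 in normoxia and from 1.20 to 1.77 in hyperoxia, with replicate 1 lowest of the hyperoxic libraries. This ratio, too, was chosen with the values known.

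**Figure D2:**
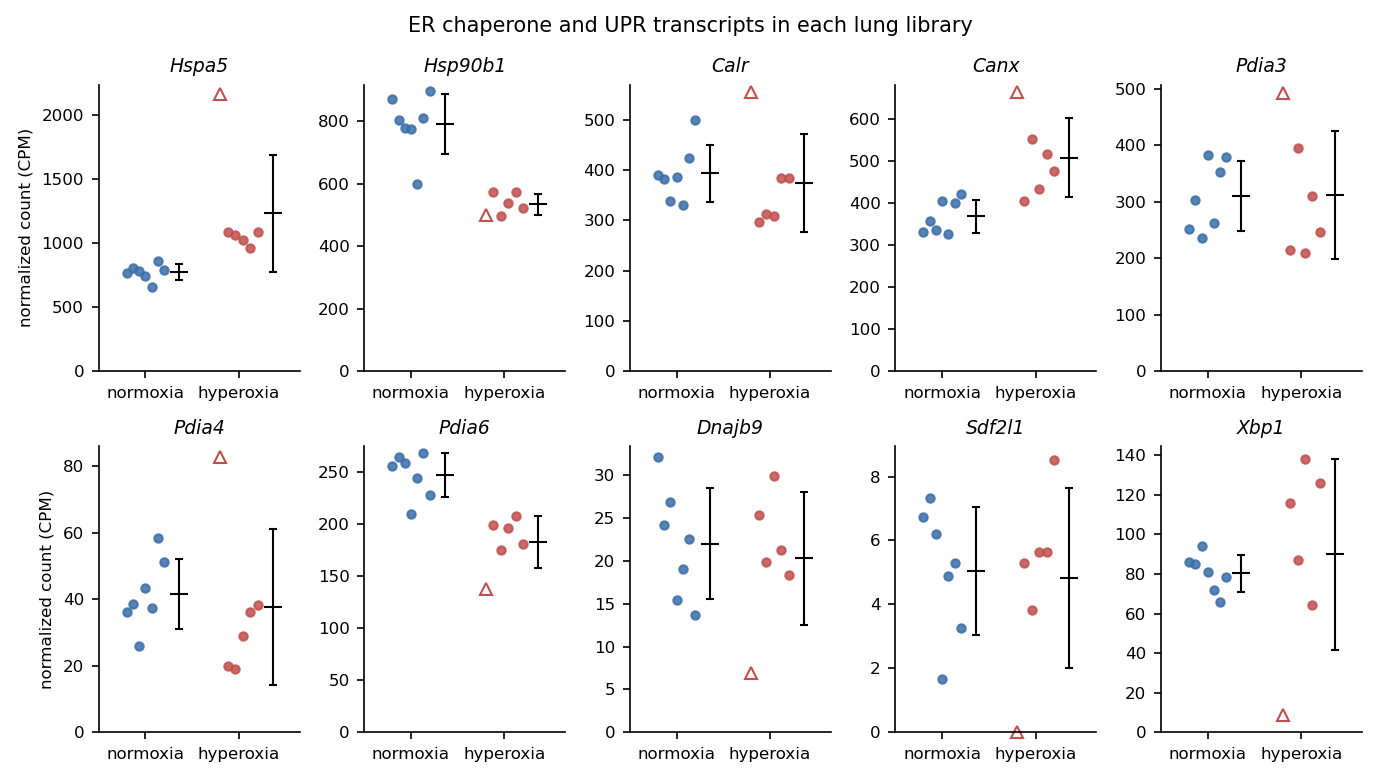
CPM of each transcript (y axis, from 0, separate scale for each gene) in 7 normoxic (blue) and 6 hyperoxic (red) libraries, with the mean and SD of each group in black and hyperoxia replicate 1 as an open triangle. Hspa5 is above normoxia and Hsp90b1 and Pdia6 are below it in every hyperoxic library, and the triangle lies at the top of 5 panels and at the bottom of 4.

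The disulfide isomerases form and rearrange the cysteine bonds of folding proteins. Pdia6 (ENSMUSG00000020571.12, chr12:17266545-17284770), a partner of BiP that is also known to switch off IRE1, was at 209, 255 and 268 CPM in the lowest, median and highest normoxic library. In hyperoxia it was at 138, 188 and 208 CPM, so that the groups did not overlap but nearly touched. The lowest hyperoxic value was that of replicate 1, the library in which Hspa5 was highest. The means were 247 ± 21.4 and 183 ± 25.1 CPM, with a log2 fold change of -0.43 ± 0.13 (adjusted p = 0.0202, edgeR) and of -0.35 without replicate 1 (adjusted p = 0.0227, edgeR). The call was lost without normoxia replicate 2 (adjusted p = 0.0516, edgeR). Pdia6 overlaps Atp6v1c2, a gene on the opposite strand whose counts fell from 42.7 ± 7.26 to 12.6 ± 4.65 CPM, and whether strand was used in counting is not given in the sources used here, so reads could be shared between them.

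Pdia3 and Pdia4 did not pass the test. Pdia3, which works with the calnexin cycle, ranged from 237 to 384 CPM in normoxia and from 209 to 493 CPM in hyperoxia, with a log2 fold change of 0.01 ± 0.21 (adjusted p = 0.991, edgeR) and of -0.15 without hyperoxia replicate 1. Pdia4 ranged from 25.8 to 58.3 CPM in normoxia. In hyperoxia it was at 82.6 CPM in replicate 1 and between 19.1 and 38.3 CPM in the other 5. With all libraries its log2 fold change was -0.16 ± 0.30 (adjusted p = 0.749, edgeR), and without replicate 1 it was -0.52 (adjusted p = 0.0821). With the letter set of the library names as a further term and replicate 1 left out, Pdia4 was called lower (log2 fold change -0.76, adjusted p = 0.00190, edgeR), a fit chosen after the data were seen.

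Dnajb9 encodes a J-domain cochaperone of BiP and Sdf2l1 a partner of such cochaperones, and both are known as sensitive targets of the UPR. Dnajb9 ranged from 13.7 to 32.1 CPM in normoxia and from 6.97 to 29.9 CPM in hyperoxia (log2 fold change -0.10 ± 0.28, adjusted p = 0.827, edgeR). Sdf2l1 was near the limit of these libraries, with 5 to 21 counts in the normoxic libraries and 0 to 39 in the hyperoxic ones. Its log2 fold change was -0.01 ± 0.48 (adjusted p = 0.994, edgeR). The 0 was that of hyperoxia replicate 1, where 3 counts, the most that a 0 allows, correspond to 1.61 CPM. Without that library the log2 fold changes of Dnajb9 and Sdf2l1 were 0.08 and 0.22, and neither passed the test.

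Xbp1 (ENSMUSG00000020484.18, chr11:5520659-5525893) encodes the factor that IRE1 activates by splicing, and a count per gene does not separate the spliced from the unspliced form. In normoxia it was narrow, from 65.8 to 93.9 CPM. In hyperoxia replicate 1 held 16 counts (8.58 CPM), and the other 5 libraries were at 116, 86.9, 138, 64.1 and 126 CPM. Of these 5, 3 were above all normoxic libraries and 1 below them all. The log2 fold change was 0.17 ± 0.37 with all libraries (adjusted p = 0.788, edgeR) and 0.42 without replicate 1 (adjusted p = 0.0709). Hyperoxia replicate 1 was therefore the lowest hyperoxic library for Xbp1, Dnajb9, Sdf2l1 and Pdia6 and the highest for Hspa5, Canx, Calr, Pdia3 and Pdia4.

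**Figure D3:**
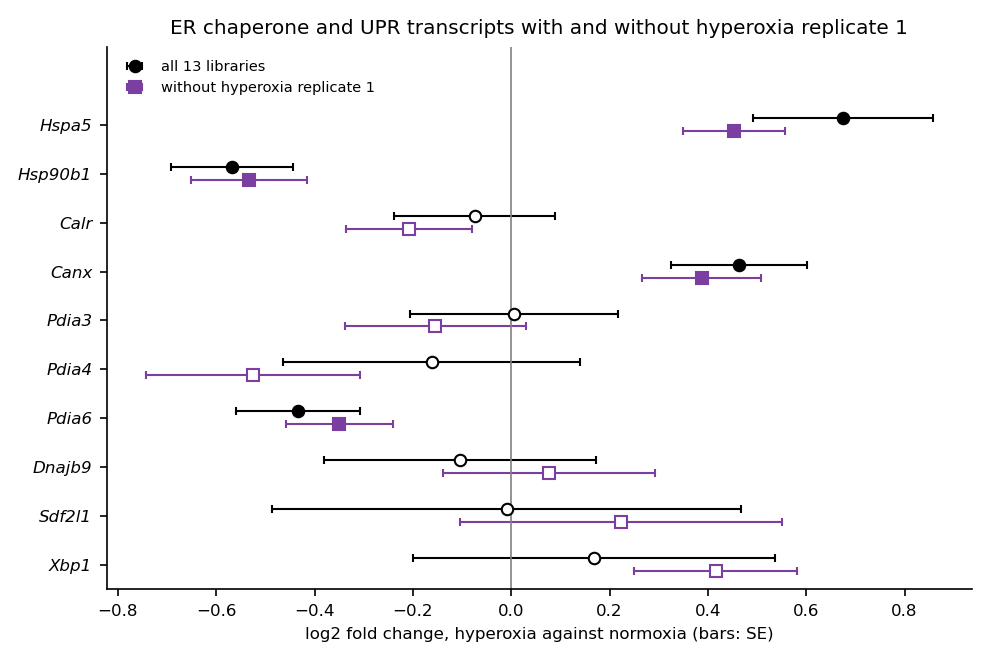
Log2 fold change of each transcript in hyperoxia against normoxia (x axis, bars are SE) with all 13 libraries (black circles) and without hyperoxia replicate 1 (purple squares), filled where edgeR's adjusted p is under 0.05. The same 4 transcripts, Hspa5, Hsp90b1, Canx and Pdia6, are filled in both fits, and Pdia4 and Xbp1 move most towards the ends of the axis when replicate 1 is left out.

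The letters of the library names run from B to S and do not themselves mark sets. They were divided here where the order of the labels returns from hyperoxia to normoxia. The set B to M holds 5 normoxic and 3 hyperoxic libraries, and the set O to S holds 2 normoxic and 3 hyperoxic libraries. What the letters stand for is not given in the sources used here. The 4 called transcripts had the same sign in both sets. The differences in mean log2 CPM were 0.86 and 0.31 for Hspa5, -0.54 and -0.65 for Hsp90b1, 0.60 and 0.21 for Canx, and -0.54 and -0.35 for Pdia6. Without replicate 1, the B to M differences of Hspa5 and Canx were 0.52 and 0.43. The sets disagreed in sign for Xbp1 (-0.88 and 0.52), Dnajb9 (-0.56 and 0.36), Sdf2l1 (-1.09 and 0.56), Pdia3 (0.30 and -0.54) and Calr (0.03 and -0.37), and hyperoxia replicate 1 belongs to the first set. Without it the B to M difference was 0.27 for Xbp1, -0.02 for Dnajb9, -0.11 for Sdf2l1, 0.04 for Pdia3 and -0.26 for Calr.

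Among the sensors and the enzymes that process them, 7 of 8 genes could be tested, of which 1 (14.3%) was higher and 1 lower, near the 11.8% and 10.8% of all genes. Atf6, the sensor whose cleaved form binds the ERSE, rose from 53.4 ± 6.55 to 85.9 ± 15.0 CPM with no overlap (log2 fold change 0.69 ± 0.14, adjusted p = 0.00248, edgeR). Its normoxic libraries lay between 40.0 and 59.2 CPM and its hyperoxic ones between 70.7 and 111 CPM, and without hyperoxia replicate 1 it was still higher (log2 fold change 0.74, adjusted p = 0.000906). Mbtps1, the site-1 protease that begins the cleavage of ATF6, was lower at the edge of the threshold (40.5 ± 10.4 and 22.3 ± 10.4 CPM, log2 fold change -0.85, adjusted p = 0.0489, edgeR), and this call was lost in 10 of 24 other settings, among them without normoxia replicate 1, 2, 3, 5, 6 or 7 and without hyperoxia replicate 3 or 5 (adjusted p from 0.0509 to 0.0990, edgeR). Eif2ak3, which encodes PERK, had a log2 fold change of -0.49 (adjusted p = 0.274) that passed without hyperoxia replicate 1 (-0.75, adjusted p = 0.0420, edgeR). Ern1, which encodes IRE1, had a log2 fold change of 0.07 (adjusted p = 0.883), and the gene Rtcb of the ligase that joins spliced Xbp1, Atf6b and the site-2 protease gene Mbtps2 did not pass either (log2 fold changes of -0.24, 0.06 and -0.03).

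The further genes of ER protein handling were taken from lists, of which 111 of 124 symbols could be tested. Of these, 15 (13.5%) were higher and 3 (2.70%) lower, beside 11.8% and 10.8% of all genes, and their median log2 fold change was 0.02 beside -0.03. Under library size alone or limma on the deposited values, the same lists gave 13 higher and 5 or 6 lower, so the size of the split depends on the processing. Higher calls were 83.3% of their calls in the main fit and 72.2% and 68.4% under these settings. Over all genes the shares were 52.3%, 42.7% and 38.8%. Among 21 further chaperones and cochaperones, edgeR called 0, with 3 higher and 1 lower at an unadjusted p under 0.05. In that list DESeq2 called 3 higher, limma-voom 1 higher, and limma on the deposited values 0 higher and 1 lower. The nearest were Dnajc10, Sec63 and Fkbp14, with log2 fold changes of 0.35, 0.49 and 0.69 and edgeR's adjusted p at 0.0535, 0.0566 and 0.0869. With 1 library left out, Dnajc10 passed without normoxia replicate 4 or hyperoxia replicate 3, Sec63 without normoxia replicate 6 or hyperoxia replicate 2, and Fkbp14 without normoxia replicate 5 or hyperoxia replicate 1 (adjusted p from 0.0297 to 0.0456, edgeR). Hyou1, Dnajc3, Dnajb11, Manf and Creld2, which are further UPR targets and were looked up after their values were seen, had log2 fold changes between -0.74 and 0.07, and none passed.

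Of 17 further enzymes of disulfide formation, 2 were higher and 2 lower, shares like the 11.8% and 10.8% of all genes. Qsox1, a sulfhydryl oxidase of the secretory pathway, rose from 321 ± 54.2 to 770 ± 299 CPM (log2 fold change 1.26, adjusted p = 4.0e-04, edgeR), with replicate 1 at 1351 CPM and the other hyperoxic libraries between 532 and 796 CPM. The membrane-bound isomerase Tmx1 rose by a log2 fold change of 0.55 (adjusted p = 0.00415, edgeR). Txndc5, a soluble isomerase, fell by 1.07 on the log2 scale, from 55.5 ± 8.59 to 26.3 ± 7.29 CPM (adjusted p = 6.6e-04, edgeR), with every hyperoxic library below every normoxic one. Ero1lb, an oxidase that recharges the isomerases and is named here because it was the other gene that fell, had 9.62 ± 4.46 and 4.33 ± 1.97 CPM (log2 fold change -1.10, adjusted p = 0.0392, edgeR). The list kept only 1 lower call, that of Txndc5, in 10 of the 13 fits that left out 1 library.

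Of 9 genes of glycan trimming, glycan quality control and lectin cargo transport, 1 (11.1%) was higher and 0 lower, near the 11.8% of all genes for the higher calls. Lman1, a cargo receptor that carries glycoproteins to the Golgi, rose from 169 ± 23.5 to 263 ± 75.5 CPM (log2 fold change 0.63, adjusted p = 0.0125, edgeR), whereas the folding sensors Uggt1 and Uggt2 did not pass (0.47 and 0.55, adjusted p = 0.116 and 0.0803), although Uggt2 passed without hyperoxia replicate 2 (adjusted p = 0.0224, edgeR). Without hyperoxia replicate 1, where Uggt1 was at 334.5 CPM, the log2 fold change of Uggt1 was 0.24 and Uggt2 did not pass. The list had 2 genes higher in that fit and also 2, Uggt2 being one of them, without hyperoxia replicate 2. ER-associated degradation, by which misfolded proteins are drawn out of the ER and ubiquitinated, gave 7 of 22 genes higher and 0 lower, beside 11.8% and 10.8% of all genes. The median log2 fold change was 0.28, and it was 0.16 with limma-voom (7 called) and 0.075 with limma on the deposited values (5 called). At an unadjusted p under 0.05 edgeR had 9 higher and 1 lower, and DESeq2 called 8 higher and 0 lower. Ufd1l, which binds the extracting ATPase p97, rose from 51.7 ± 4.06 to 93.9 ± 15.5 CPM (log2 fold change 0.86, adjusted p = 2.7e-04, edgeR), and its partner Nploc4 and the p97 anchor Ubxn4 were also called. Aup1 rose by 0.93 and the ubiquitin-conjugating enzyme Ube2j1 by 0.72 on the log2 scale (adjusted p = 0.00535 and 0.00575, edgeR), beside Sel1l and Ube2j2.

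The summed CPM of the degradation list was between 2166 and 2237 in normoxia and between 2523 and 3206 in hyperoxia. Hyperoxia replicate 1 gave the 3206, and the other hyperoxic libraries reached 2932 at most. Sums also did not overlap for the disulfide list (1247 to 1555 and 1588 to 2229 CPM) and for the mitochondrial, cytosolic and ATF4 lists described below. Those of the sensor, chaperone, glycan and translocon lists overlapped. The sum of the 10 folding transcripts overlapped too, with 2549 to 3362 CPM in normoxia and 2908 to 4611 CPM in hyperoxia. Without replicate 1 the hyperoxic range of the 10 was 2908 to 3119 CPM. Of 35 genes of the translocon, the oligosaccharyl transferase and secretory transport, 4 (11.4%) were higher, about the 11.8% of all genes, and 0 lower against 10.8%, with 5 higher and 3 lower at an unadjusted p under 0.05 and 5 higher and 0 lower in DESeq2. Srp72 of the signal recognition particle rose by 1.00, the glycan transferase subunit Stt3b by 0.84 and the receptor subunit Srprb by 0.63 on the log2 scale (adjusted p = 2.9e-04, 0.00368 and 0.0167, edgeR).

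The list of the PERK and ATF4 branch was read in the same 13 libraries and is given beside the ER chaperones for its values. The activity of PERK was not measured, its gene Eif2ak3 was not called higher, and whether PERK acted on these genes was not tested. In this list 10 of 11 tested genes were higher and 0 lower, beside 11.8% and 10.8% of all genes, with a median log2 fold change of 1.82. Atf4 rose from 70.7 ± 11.1 to 265 ± 44.2 CPM (log2 fold change 1.91, adjusted p = 4.3e-07, edgeR) and Ddit3, which encodes CHOP, from 18.7 ± 4.36 to 49.1 ± 12.2 CPM (log2 fold change 1.40, adjusted p = 1.8e-04, edgeR). Of the mitochondrial chaperones and proteases 5 of 14 (35.7%) were higher. Those with the smallest p were Hspa9, the mitochondrial Hsp70, at 133 ± 10.7 and 463 ± 57.8 CPM (log2 fold change 1.80), and Grpel2, its exchange factor, with a log2 fold change of 1.12, and Hspd1, the mitochondrial Hsp60, had 1.14. Without hyperoxia replicate 1, 10 of 14 were higher, in a fit that called 1934 of 12752 genes higher where the full set of libraries gave 1473 of 12496. Of the cytosolic heat shock genes 2 of 17 were higher, a share like the 11.8% of all genes. They were Hsp90aa1 by 1.18 and Hspa4 by 0.53, and leaving out any 1 hyperoxic library gave 3 to 5 (5 without replicate 1) in fits that called 1330 to 1934 of all genes higher. The cytosolic Hsp90aa1 thus rose in these libraries while the ER paralog Hsp90b1 fell, and the mitochondrial Hspa9 had a larger log2 fold change than the ER paralog Hspa5, a difference that was not tested.

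**Figure D4:**
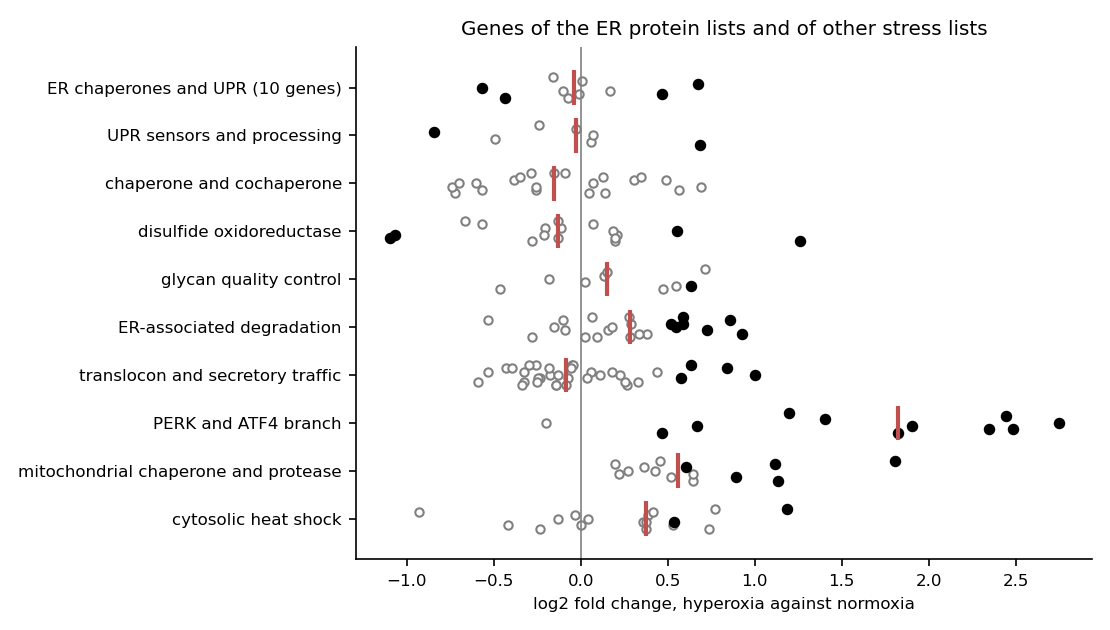
Log2 fold change in hyperoxia against normoxia (x axis) of each tested gene in the lists of ER protein handling and of other stress responses (y axis), filled where edgeR's adjusted p is under 0.05, with the median of each list in red. The 10 ER chaperone and UPR genes spread on both sides of 0 with a median of -0.04. In the PERK and ATF4 list, 10 of 11 tested genes lie to the right of 0, and the median is 1.82.

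Markers of secretory cells and of B cells moved in the same libraries, and their counts stand beside 10.8% of all genes lower and 11.8% higher. Lower calls were not particular to these lists, as others given below, such as those of ciliated and capillary endothelial cells, had them too. Of 8 alveolar type 2 cell markers 6 were lower and 0 higher, and their summed level was between 12430 and 23320 CPM in normoxia and between 3212 and 6977 CPM in hyperoxia. Of 7 tested plasma cell markers 3 were lower and 0 higher (269 to 446 and 120 to 276 CPM). Among these 3, Ighm and Igkc are also expressed by B cells, and Sdc1, Prdm1, Igha and Fkbp11 did not pass. Of the 5 tested B cell markers reported here 4 were lower and 0 higher, and the sum over that list was between 157 and 218 CPM in normoxia and between 46.6 and 114 CPM in hyperoxia. Of 6 club cell markers 2 were lower, with 14550 to 53140 CPM in normoxia and 188 to 10200 CPM in hyperoxia, where the 188 CPM was that of replicate 1. Mzb1 and Derl3 of the plasma cell list and Fcmr of the B cell list were at 0 in hyperoxia replicate 1, and no reported marker of these 4 lists was at 0 in all hyperoxic libraries. Their part in the lower Hsp90b1, Pdia6 and Txndc5 was not tested.

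The 5 genes outside the lists whose pattern over the 13 libraries was most like the mean of the 10 transcripts were Hp1bp3, Pds5a, Nrp2, Rassf8 and Tanc1. Likeness was the root mean square difference of log2 CPM centred on the normoxic mean, among 5558 genes whose mean log2 CPM was 5 or more, and it ran from 0.09 to 0.12. As the choice of genes close to that mean fixes, their log2 fold changes were small, between -0.17 and -0.06. The mean of the 10 hides the split among them, and none of Hspa5, Hsp90b1, Canx and Pdia6 was as close to it, with differences between 0.25 and 0.62.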

How the data were processed

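Lung RNA of 7 normoxic and 6 hyperoxic samples was read by Quant-seq. The authors ran kallisto through BioJupies (mm10, per the submitters' processing notes) and deposited whole-number counts per gene symbol without normalization. They also deposited the same values as log10 of CPM plus 1. The kallisto settings for strand are not given in the sources used here. All columns of both tables were mapped to samples by their labels. Of 32544 symbols, 12826 were at 0 throughout.

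The counts were fitted with edgeR 4.0.16 (glmQLFit and glmQLFTest, TMM scaling, filterByExpr) in R 4.3.3, with Benjamini-Hochberg adjustment over 12496 genes and a threshold of 0.05. Standard errors were derived from each F statistic, and log2 CPM used a prior count of 2. CPM values were counts divided by the TMM-scaled total over the tested genes. Library totals ran from 1607111 to 4540288, so that 3 counts, the floor used, were 0.656 to 1.84 CPM. Floors cover counting error only, since use of molecular identifiers is not stated. Every pair of libraries of a group differed beyond counting noise. The fits were tested on simulated data.

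The 10 transcripts and all gene lists were chosen with earlier results of these data known. The genes named are the 10, every tested UPR sensor or processing gene, the 3 with the smallest p of each other ER list, the 2 with the smallest p of each further stress list, and the 5 most alike in pattern. Other genes named were chosen after their values were seen. One marker of the B cell list is not reported here, and the values of that list leave it out. Promoters were RefSeq sequences (GRCm38.p6) matched by symbol for 10 of 10 genes, gene positions were from a GENCODE annotation of GRCm38, and the start sites of the sources can differ. Alternatives were DESeq2 1.42.0, limma 3.58.1 (voom, and on the deposited log10 values in log2 units), library size or RLE scaling, a filter of 1 count in all or of 10 in each library, the replicate number or the letter set of the library names as a term, each library left out, and a log2 fold change of 1.5. A term for the letter set and limma on the deposited values, each without hyperoxia replicate 1, were added after the data were seen.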

Additional observations from a re-analysis of the deposited data

Results flagged for a closer look

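In 92 groups of values, over 46 results in each condition, 14 had one library that stood further from its neighbours than 95% of such groups would by chance, where about 4.6 would be met by chance at 1 in 20. The measure is the gap to the nearest library over the range of the group. Of the 14, 9 were hyperoxia replicate 1, which correlated least with the rest (mean 0.779, gap 0.763 of the range).

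This library was the highest of the hyperoxic ones for Hspa5 (2160 CPM, gap 0.892), Calr (556 CPM, gap 0.661), Pdia4 (82.6 CPM, gap 0.698) and the ratio of Hspa5 to Hsp90b1 (4.32, gap 0.829). Outside the 10 transcripts it was the highest for the translocation chaperone Sec63 (461 CPM, gap 0.628), Qsox1 (1351 CPM, gap 0.678), Lman1 (413 CPM, gap 0.785) and Aup1 (393 CPM, gap 0.834). The 10 transcripts together took 0.424% of its counts, against 0.283% to 0.311% in the other hyperoxic libraries.

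Normoxia replicate 5 had the lowest total of the normoxic libraries (1607111 counts, gap 0.612) and the lowest Hsp90b1 (599 CPM, gap 0.592). Normoxia replicate 1 was lowest for Atf6 (40.0 CPM, gap 0.626) and Hspa9 (110.5 CPM, gap 0.611). Hyperoxia replicate 3 was highest for Grpel2 (94.5 CPM, gap 0.816).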

How the results depend on the processing

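The counts of 2 transcripts called higher and 2 called lower of 10 were the same under DESeq2, limma-voom, limma on the deposited values, library size or RLE scaling, at least 10 counts in every library and the letter set as a term. Without a filter on low counts 1 was lower, as Pdia6 had an adjusted p of 0.0659. The median log2 fold change of the 10 was -0.12 with limma-voom (all genes -0.08) and -0.13 with the block (all genes -0.08). A log2 fold change of 1.5 left 0 and 0 of the 10, 0 and 0 of the further ER genes, and 194 higher and 294 lower of all genes. Leaving out 1 library gave 1 to 2 higher (1 without hyperoxia replicate 5 or normoxia replicate 1 or 3) and 1 to 2 lower (1 without normoxia replicate 2), and 1 to 3 further ER genes lower.

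The groups share replicate numbers, and no label says that these pair samples. Libraries with the same number did not deviate together (correlations of -0.33, 0.27, -0.24, -0.31, -0.07 and -0.14), which cannot exclude a pairing. With the number as a replicate block, 0 and 0 of the 10 were called, with Hspa5 at 0.62 (adjusted p = 0.0789), Hsp90b1 at -0.53 (0.0686), Canx at 0.48 (0.111) and Pdia6 at -0.46 (0.0965) in edgeR, beside 7 higher and 1 lower of the further ER genes and 718 higher and 626 lower of all genes. The block leaves fewer residual degrees of freedom.

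For the further ER genes, 15 higher and 3 lower became 6 lower under limma on the deposited values (also 6 without hyperoxia replicate 1), 5 lower under library size only, 1 lower without a filter, and 23 higher with the letter set and without hyperoxia replicate 1, where all genes went from 1473 to 2045 higher. Over all genes 52.3% of calls were higher, against 42.7% with library size only and 38.8% with limma on the deposited values, which moved the median log2 fold change by -0.13. The latter called 2137 lower without hyperoxia replicate 1.

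Of the 22 called genes that the naming rule covers, 14 kept their call under all 24 settings of each gene, and 0 changed sign. Signs changed only among uncalled genes, and the cause was not tested. Pdia3 was at -0.051 with limma-voom, -0.12 with limma on the deposited values, -0.088 with library size only, -0.077 with at least 10 counts, -0.17 with the letter set and -0.25 with limma, the last pair without hyperoxia replicate 1. Xbp1 was at -0.14 with limma-voom, -0.29 with limma on the deposited values and -0.073 with the block. Under the letter set and under limma, both without hyperoxia replicate 1, Dnajb9 was at 0.14 and 0.032, Sdf2l1 at 0.20 and 0.17, and Mbtps2 at 0.15 and 0.062. Without a filter Sdf2l1 was at 0.016 and Mbtps2 at 0.0061. Ern1 and Atf6b were at -0.12 and -0.19 with limma on the deposited values, -0.073 and -0.014 with the block, and -0.047 and -0.0035 with the letter set. Atf6b was at -0.0082 with limma-voom. With the letter set and without hyperoxia replicate 1, Rtcb was at 0.098 and Pds5a at 0.011. With 1 library left out, the log2 fold changes ran from -0.21 to 0.020 for Calr, -0.15 to 0.13 for Pdia3, -0.52 to 0.0084 for Pdia4, -0.23 to 0.076 for Dnajb9, -0.24 to 0.22 for Sdf2l1, -0.42 to 0.011 for Rtcb, -0.074 to 0.26 for Ern1, -0.13 to 0.27 for Atf6b, -0.14 to 0.13 for Mbtps2 and -0.090 to 0.024 for Pds5a. Sdf2l1 had under 10 counts in some libraries and no value under that filter.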

Other observations

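Other marker lists of lung cells are given beside 11.8% of all genes higher and 10.8% lower, shares that the counts of type 1 cells are near. Of 8 alveolar type 1 cell markers 1 was higher and 1 lower, with summed levels of 3405 to 3972 CPM in normoxia and 4291 to 5412 CPM in hyperoxia. The called higher marker was Akap5, at 1194 ± 133 and 2734 ± 359 CPM, and the sum of the other 7 was 2276 to 2776 CPM in normoxia and 1235 to 2621 CPM in hyperoxia. Capillary endothelial and ciliated cells had 3 of 8 and 3 of 6 markers lower and 0 higher (edgeR, DESeq2 calling 3 and 4 lower and 0 higher). Fibroblast markers were split, with 2 of 7 higher and 2 lower, as were monocyte markers, with 1 of 7 higher and 2 lower. With 1 library left out, the lower calls ran from 0 (without normoxia replicate 1, 2, 4, 6 or 7 or hyperoxia replicate 2, 3, 4 or 6) to 2 for type 1 cells, from 0 (without hyperoxia replicate 3) to 2 for fibroblasts, from 1 (without normoxia replicate 1) to 3 for monocytes, and from 2 to 4 for ciliated cells, and the higher calls of monocytes were 2 without normoxia replicate 3. Without hyperoxia replicate 1, capillary endothelial cells had 1 higher and 4 lower, and alveolar macrophages 1 higher and 2 lower. Of 7 alveolar macrophage markers 3 were lower, but only 2 were in 10 of the 13 fits that left out 1 library. Hyperoxia replicate 1 had a sum of 75.1 CPM for them where the other hyperoxic libraries had 432 to 669.9 CPM. Of 5 neutrophil markers edgeR and DESeq2 called 0, and 0 passed at an unadjusted p under 0.05, with 1 lower when hyperoxia replicate 4 was left out (edgeR).

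Of the further ER folding genes, Cnpy2, Fkbp2, Fkbp10 and Ppib, had no count in hyperoxia replicate 1, in which Hspa5, Canx, Calr and Pdia3 were at their highest, so the ER transcripts of that library went to both ends of the range.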
